A study of Homo sapiens with 24 samples.

Results

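TH, DBH and RET are 3 genes that mark the sympathetic lineage, and the levels of their transcripts are described here on 24 arrays of 3 neuroblastoma cell lines. They were chosen by symbol, each with the 1 probe that a list of regulated genes of the study gives for it: UKv4_A_23_P258633 for TH, UKv4_A_23_P112296 for DBH and UKv4_A_23_P202245 for RET. They are 3 of the 3504 genes that could be named from that list, on an array of 43291 probes besides its control spots. Because the study had selected the genes of the list as changed on these arrays, that each of them differs between FOXP1 and GFP cells in some line is no independent finding.

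TH encodes tyrosine hydroxylase, the rate-limiting enzyme of catecholamine synthesis, which converts tyrosine to L-DOPA. DBH encodes dopamine beta-hydroxylase, which converts dopamine to noradrenaline inside storage vesicles. RET encodes a receptor tyrosine kinase that binds ligands of the GDNF family together with a GFRA co-receptor and acts in the development of sympathetic neurons, the lineage from which neuroblastoma arises.

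The established lines SK-N-BE(2), IMR-32 and CHP-212 are human neuroblastoma cells. From each line, a polyclonal culture with FOXP1, a forkhead transcription factor, and a polyclonal control culture with GFP were made by retroviral transduction, with either transgene under a promoter that a reverse tetracycline-controlled transactivator switches on when doxycycline is added. RNA was collected at 0, 12, 24 and 72 h of doxycycline and measured on 1 array per sample, which gave 6 groups of 4 arrays. The promoter is leaky, so the 0 h samples are not free of the transgene.

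Within a group, the 4 arrays follow 1 culture through time. The p-values therefore measure the spread between time points of a culture and not between separately made cultures. Each line had 1 FOXP1 and 1 GFP culture. A standing difference between these 2 cultures cannot be told apart from one made by FOXP1. Each line was on 2 slides of 4 arrays, 1 with FOXP1 and GFP cells at 0 and 12 h and 1 with FOXP1 and GFP cells at 24 and 72 h. Line and slide cannot be told apart in a comparison of lines. The transgene and the position on the slide cannot be told apart either, since GFP and FOXP1 samples always took the same positions.

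Levels are log2 processed signals relative to the 75th percentile of their array, so that a level of 0 is the signal of that percentile. Probes differ in how well they bind, and the level of a gene is compared here only with the level of the same gene in other samples. The share of probes well above background was 53.9 to 60.4% on the slide of CHP-212 at 0 and 12 h and 72.8 to 82.3% on the other 5 slides. TH and RET stood well above background on 24 of 24 arrays. For DBH this held on 21 of 24, and the 3 others were CHP-212 GFP at 0 and 12 h and CHP-212 FOXP1 at 0 h.

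The FOXP1 probe served as a check of the labels. In IMR-32, its level at 0, 12, 24 and 72 h was 1.05, 1.19, 1.39 and 1.18 in GFP cells and 2.60, 2.76, 2.66 and 2.38 in FOXP1 cells. In CHP-212, it was 0.77, 1.20, 1.08 and 1.05 in GFP cells and 2.81, 3.28, 3.00 and 2.94 in FOXP1 cells. In SK-N-BE(2), it was 3.00, 3.30, 2.87 and 2.81 on the GFP arrays and 2.97, 2.84, 2.63 and 2.73 on the arrays labelled FOXP1. All FOXP1 arrays lay above all GFP arrays in IMR-32 and CHP-212, at 0 h as well as later. In SK-N-BE(2) the arrays labelled FOXP1 did not have more of this transcript, and directions given for that line rest on the labels.

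The promoters are shown because the 3 transcripts were all higher in FOXP1 cells of IMR-32, and FOXP1 belongs to a family that binds forkhead motifs. The table of RefSeq promoters used here (build GRCh38.p14) held DBH and RET, 2 of the 3 genes, and no entry for TH. The 250 bases before each annotated start are given 5′ to 3′ on the strand of the gene, with any of 4 motifs in capitals.
DBH, chr9:133636113-133636362, plus strand: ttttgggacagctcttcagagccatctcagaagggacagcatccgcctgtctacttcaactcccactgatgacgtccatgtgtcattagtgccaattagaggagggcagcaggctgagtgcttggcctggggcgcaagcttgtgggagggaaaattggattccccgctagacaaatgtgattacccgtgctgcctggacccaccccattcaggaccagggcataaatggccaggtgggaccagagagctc
RET, upstream start, chr10:43076819-43077068, plus strand: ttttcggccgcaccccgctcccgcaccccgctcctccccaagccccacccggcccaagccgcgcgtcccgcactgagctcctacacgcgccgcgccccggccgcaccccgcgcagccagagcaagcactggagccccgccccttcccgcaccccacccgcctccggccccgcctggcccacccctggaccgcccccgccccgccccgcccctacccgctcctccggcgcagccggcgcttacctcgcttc
RET, downstream start, chr10:43104515-43104764, plus strand: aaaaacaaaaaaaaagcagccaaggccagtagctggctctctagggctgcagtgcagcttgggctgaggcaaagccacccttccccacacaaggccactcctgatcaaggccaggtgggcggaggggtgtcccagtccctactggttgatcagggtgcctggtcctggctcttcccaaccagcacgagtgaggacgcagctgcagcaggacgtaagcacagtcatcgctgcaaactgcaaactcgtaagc
The G and C share was 55.6% for DBH, 79.6% for the upstream start of RET and 58.0% for its downstream start, beside a median of 58.0% over 35116 promoters of this length. The motifs searched on both strands were TGTTTAC for forkhead factors, TGACGTCA (the cyclic AMP response element), TAATTA for homeodomain factors and AGATAA for GATA factors. They occur in 2.98%, 1.65%, 4.35% and 9.17% of the 35116 promoters, in that order. None of these 4 strings of letters is in the 3 windows shown, hence no capitals. Only exact matches were searched. The DBH window holds tgacgtcc, which differs from TGACGTCA in the last base only, so the search does not show that such an element is absent.

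TH was highest in CHP-212 and lowest in GFP cells of IMR-32. Its level at 0, 12, 24 and 72 h was 2.69, 2.65, 3.55 and 3.33 in CHP-212 GFP cells (mean 3.05 ± 0.46, SD, n = 4). It was 1.92, 1.77, 1.60 and 2.27 in SK-N-BE(2) GFP cells (1.89 ± 0.29, n = 4). It was -1.22, -1.66, -1.46 and -0.29 in IMR-32 GFP cells (-1.16 ± 0.60, n = 4). The GFP arrays of the 3 lines therefore formed 3 ranges without overlap, with IMR-32 far below the others. With FOXP1, the level of TH was 2.03, 2.33, 1.88 and 2.46 in IMR-32 (2.18 ± 0.27, n = 4) and 3.21, 3.24, 3.43 and 3.26 in CHP-212 (3.28 ± 0.10, n = 4). On the SK-N-BE(2) arrays labelled FOXP1 it was 1.86, 1.52, 1.67 and 2.23 (1.82 ± 0.31, n = 4). In the order of the 6 means, the 2 CHP-212 cultures came first and overlapped each other. IMR-32 FOXP1 and the 2 SK-N-BE(2) cultures followed, and neighbours among these 3 overlapped as well. IMR-32 GFP came last, with no array near the other cultures.

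DBH was highest in SK-N-BE(2) and lowest in CHP-212, where 5 of 8 arrays were well above background. Its level at 0, 12, 24 and 72 h was 4.48, 4.56, 4.36 and 4.86 in SK-N-BE(2) GFP cells (4.56 ± 0.21, SD, n = 4). It was -1.05, -1.36, -0.89 and 0.04 in IMR-32 GFP cells (-0.82 ± 0.60, n = 4). It was -6.55, -6.54, -6.27 and -5.15 in CHP-212 GFP cells (-6.13 ± 0.67, n = 4), with only the 24 and 72 h arrays well above background. The GFP arrays of the 3 lines thus lay far apart for DBH, with CHP-212 at the bottom. With FOXP1, the level of DBH was 2.85, 2.96, 2.80 and 3.55 in IMR-32 (3.04 ± 0.35, n = 4). It was -3.80, -3.64, -4.05 and -4.75 in CHP-212 (-4.06 ± 0.49, n = 4), of which the 0 h array was not well above background. On the SK-N-BE(2) arrays labelled FOXP1 it was 5.15, 4.81, 4.95 and 5.50 (5.10 ± 0.30, n = 4). The 2 SK-N-BE(2) cultures overlapped at the top, by the 72 h GFP array and the 12 h array labelled FOXP1. Below them IMR-32 FOXP1 and IMR-32 GFP followed, each clear of the next, and then the CHP-212 cultures. Of the 8 CHP-212 arrays, the 5 well above background separated with FOXP1 above GFP, and the levels of the 3 others are uncertain.

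RET was high in CHP-212 and SK-N-BE(2) and low in IMR-32. Its level at 0, 12, 24 and 72 h was 3.24, 3.28, 4.05 and 3.81 in CHP-212 GFP cells (3.59 ± 0.40, SD, n = 4). It was 2.71, 2.94, 2.30 and 2.74 in SK-N-BE(2) GFP cells (2.67 ± 0.27, n = 4). It was -4.34, -3.41, -3.00 and -3.13 in IMR-32 GFP cells (-3.47 ± 0.61, n = 4). All 4 CHP-212 GFP arrays were above all 4 SK-N-BE(2) GFP arrays by a small margin, and the IMR-32 GFP arrays were far below both. With FOXP1, the level of RET was -0.67, -0.49, -1.16 and 0.33 in IMR-32 (-0.50 ± 0.62, n = 4). It was 2.48, 2.09, 2.96 and 2.81 in CHP-212 (2.58 ± 0.39, n = 4). On the SK-N-BE(2) arrays labelled FOXP1 it was 4.18, 3.69, 3.06 and 3.58 (3.63 ± 0.46, n = 4). At the top, SK-N-BE(2) labelled FOXP1 and CHP-212 GFP overlapped. SK-N-BE(2) GFP and CHP-212 FOXP1 overlapped next, and the FOXP1 and GFP cells of IMR-32 came last, clear of the others and of each other.

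**Figure D1:**
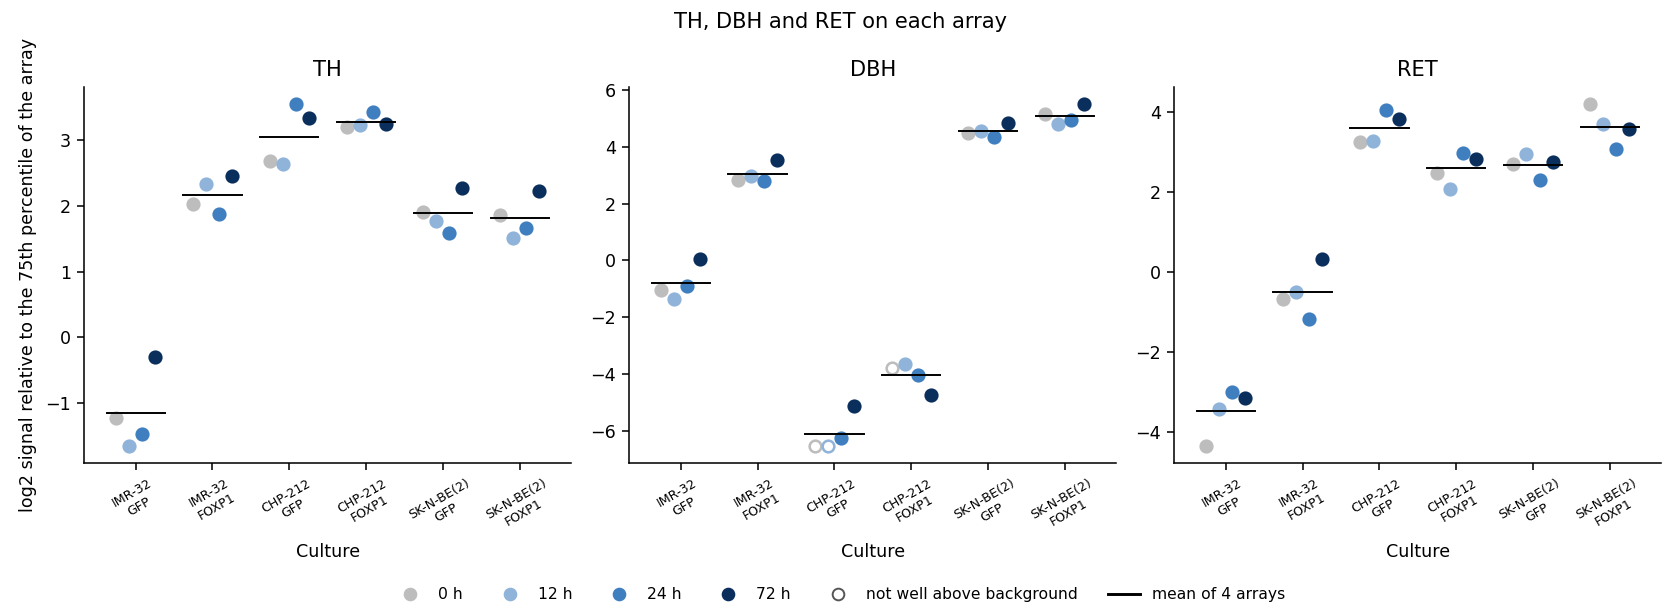
Log2 level of TH, DBH and RET relative to the 75th percentile of the array, for the 4 time points of each of 6 cultures, with the mean as a bar and open circles for arrays not well above background. TH is lowest in IMR-32 GFP cells (mean -1.16), DBH in CHP-212 GFP cells (mean -6.13) and RET in IMR-32 GFP cells (mean -3.47).

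The GFP cells of the 3 lines were compared in a single limma fit of the 24 arrays over 36234 probes, with a call for a probe that passed an adjusted p of 0.05 and changed 2-fold or more. Between IMR-32 and CHP-212, 30.8% of the probes tested were called, and so were all 3 genes. TH was 18.5-fold lower in IMR-32 (log2 difference -4.21 with a standard error of 0.26, adjusted p = 8.12e-12, limma). For RET the level was 134-fold lower (-7.06, standard error 0.32, adjusted p = 4.45e-14, limma). DBH went the other way and was 39.7-fold higher in IMR-32 (5.31, standard error 0.32, adjusted p = 4.61e-12, limma), with 2 of 4 CHP-212 arrays well above background. The size of the DBH difference is therefore uncertain, and over all alternatives it ran from 3.23 to 6.24 on the log2 scale. CHP-212 cells thus held more of the transcripts of the first enzyme of the pathway and of the receptor than IMR-32, and less of that of the enzyme that makes noradrenaline. In bulk RNA, fewer cells with a transcript and less of it in each cell cannot be told apart.

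Between IMR-32 and SK-N-BE(2), 24.7% of the probes were called, and the 3 genes were again among them, all lower in IMR-32. TH was 8.26-fold lower (log2 difference -3.05 with a standard error of 0.26, adjusted p = 3.68e-09, limma), DBH 41.6-fold lower (-5.38, standard error 0.32, adjusted p = 7.38e-12, limma) and RET 70.7-fold lower (-6.14, standard error 0.32, adjusted p = 1.01e-12, limma). Between CHP-212 and SK-N-BE(2), 30.6% of the probes were called, with TH and DBH among them and in opposite directions. TH was 2.24-fold higher in CHP-212 (1.17, standard error 0.26, adjusted p = 0.00075, limma). DBH differed by -10.69 (standard error 0.32, adjusted p = 4.61e-17, limma), with 2 of 4 CHP-212 arrays well above background and a range of -11.39 to -8.44 over all alternatives. The RET transcript was 1.89-fold more abundant in CHP-212 (0.92, 95% confidence interval 0.25 to 1.59, adjusted p = 0.0226, limma), under the fold change needed for a call. With 24 and 72 h only, the RET difference was 1.41 and was called (adjusted p = 0.0275, limma), and over all alternatives its adjusted p ran from 0.0066 to 0.0779. Which SK-N-BE(2) arrays are the GFP cells rests on the labels too, and with these exchanged the RET difference would be -0.04 for CHP-212 and -7.10 for IMR-32.

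Within each line, the 4 FOXP1 arrays were set against the 4 GFP arrays in a limma fit of their own, with the same rule for a call. In IMR-32, where 12.2% of 33806 probes were called, TH, DBH and RET were all higher in FOXP1 cells. At 0, 12, 24 and 72 h, the log2 ratio of FOXP1 over GFP cells was 3.25, 3.99, 3.34 and 2.75 for TH. It was 3.90, 4.31, 3.70 and 3.51 for DBH and 3.67, 2.91, 1.84 and 3.46 for RET. Every ratio was 1.84 or more, and for each gene the lowest FOXP1 array was above the highest GFP array. The means differed 10.1-fold for TH (log2 difference 3.33, 95% confidence interval 2.69 to 3.98, adjusted p = 2.34e-05, limma). They differed 14.5-fold for DBH (3.85, 95% confidence interval 3.18 to 4.53, adjusted p = 1.14e-05, limma) and 7.85-fold for RET (2.97, 95% confidence interval 2.16 to 3.79, adjusted p = 0.000254, limma). Within the slide of 0 and 12 h, the differences were 3.62 for TH, 4.11 for DBH and 3.29 for RET. Within the slide of 24 and 72 h, they were 3.05, 3.60 and 2.65, and with the slide as a block the adjusted p-values were 4.00e-05, 8.60e-06 and 0.000246 (limma). Over all alternatives these ran from 1.67e-09 to 0.00438 for TH, from 4.01e-09 to 0.0017 for DBH and from 2.91e-07 to 0.0113 for RET. At 0 h, without doxycycline, the ratios of all 3 genes were already above 3.

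In CHP-212, where 3.02% of 32958 probes were called, DBH was the only one of the 3 that was called in the unpaired fit. The log2 ratio of FOXP1 over GFP cells at 0, 12, 24 and 72 h was 2.76, 2.89, 2.22 and 0.40 for DBH. It was 0.52, 0.59, -0.12 and -0.08 for TH and -0.76, -1.19, -1.09 and -0.99 for RET. TH was thus higher with FOXP1 at 2 of 4 times and RET at 0 of 4. For DBH both arrays were well above background only at 24 and 72 h, and its ratio was above 0 at both. DBH was 4.19-fold higher in FOXP1 cells on the means (log2 difference 2.07, 95% confidence interval 1.25 to 2.88, adjusted p = 0.0147, limma), with 3 of 4 FOXP1 and 2 of 4 GFP arrays well above background. RET differed by -1.01 (95% confidence interval -1.60 to -0.42, adjusted p = 0.0701, limma) and TH by 0.23 (95% confidence interval -0.29 to 0.75, adjusted p = 0.65, limma).

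The CHP-212 values depended on the processing, slides and times used. With normexp the DBH difference was 1.00 (adjusted p = 0.0588, limma) and with quantile normalization 2.92 (adjusted p = 0.0524, limma), and neither was called. Within the slide of 0 and 12 h, where fewer probes were well above background and DBH was so on 1 of 4 arrays, the DBH difference was 2.83. Within the slide of 24 and 72 h it was 1.31, and with these times only it was not called (adjusted p = 0.262, limma). With the time point as a block, which pairs FOXP1 and GFP samples, the calls were the other way round, DBH not called (adjusted p = 0.0512, limma) and RET called (adjusted p = 0.0156, limma). By the test in the study's methods, DBH had an unadjusted p of 0.00244, and of 0.0584 with the adjustment added here. Over all alternatives the adjusted p of DBH ran from 0.000148 to 0.262. The RET difference was -0.98 and -1.04 within the 2 slides, and with the slide as a block it was called (adjusted p = 0.00556, limma), over a range from 0.00556 to 0.192. The TH difference was 0.56 and -0.10 within the 2 slides and changed direction between them. What part the dimmer slide had in these values was not tested.

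In SK-N-BE(2), where 0.711% of 34044 probes were called, 0 of the 3 genes were called by limma at the adjusted threshold, and DBH and RET had an unadjusted p under 0.05. The log2 ratio of the arrays labelled FOXP1 over the GFP arrays at 0, 12, 24 and 72 h was 0.67, 0.25, 0.59 and 0.64 for DBH. It was 1.48, 0.75, 0.76 and 0.84 for RET and -0.05, -0.25, 0.07 and -0.04 for TH. DBH and RET were higher at 4 of 4 times, and TH at 1 of 4. The differences of the means were 0.54 for DBH (95% confidence interval 0.10 to 0.98, adjusted p = 0.482, limma), 0.96 for RET (0.39 to 1.53, adjusted p = 0.213, limma) and -0.07 for TH (-0.55 to 0.41, adjusted p = 0.987, limma). Within the slides of 0 and 12 h and of 24 and 72 h, they were 0.46 and 0.61 for DBH, 1.11 and 0.80 for RET, and -0.15 and 0.01 for TH. With the slide as a block the adjusted p was 0.38 for DBH, 0.0918 for RET and 0.957 for TH (limma), over ranges of 0.104 to 1.00, 0.0519 to 1.00 and 0.778 to 1.00 among the alternatives.

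**Figure D2:**
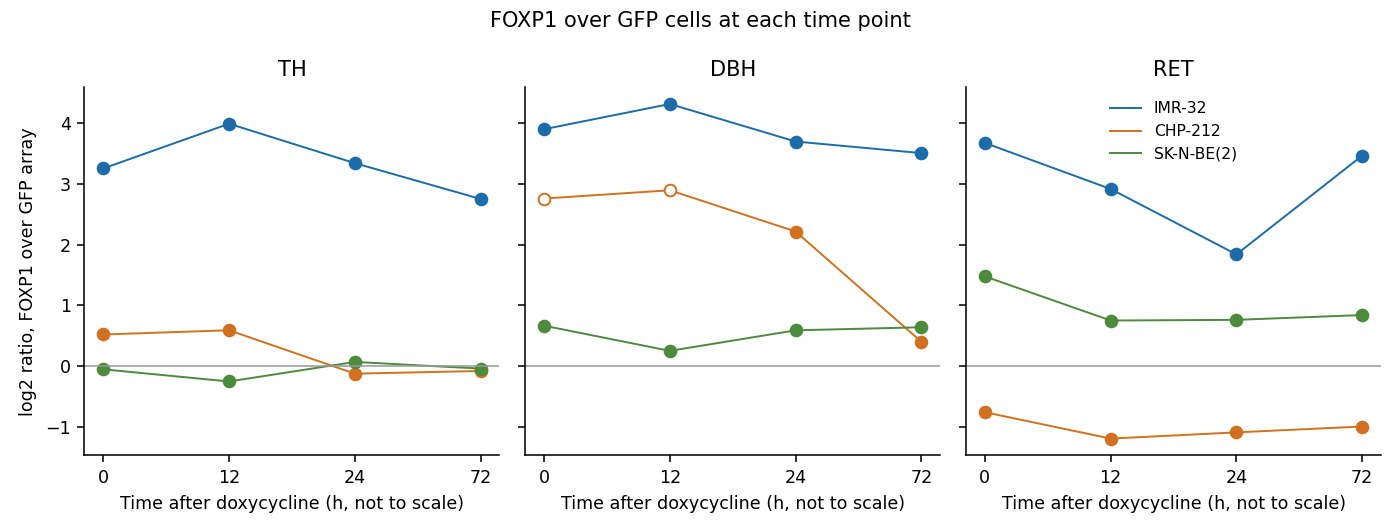
Log2 ratio of the FOXP1 over the GFP array at 0, 12, 24 and 72 h of doxycycline (times not to scale), by gene and line, with open circles where an array of the pair was not well above background. The ratios of IMR-32 lie between 1.84 and 4.31 for the 3 genes. The DBH ratio of CHP-212 is 2.22 at 24 h and 0.40 at 72 h, the times at which both arrays were well above background.

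Whether the difference between FOXP1 and GFP cells, here called the effect, differed between lines was tested in the fit of 24 arrays. Between IMR-32 and CHP-212, where 11.8% of the probes were called, the effect differed for all 3 genes, by 3.11 for TH (standard error 0.37, adjusted p = 2.33e-06, limma), 1.79 for DBH (0.45, adjusted p = 0.00797, limma) and 3.98 for RET (0.46, adjusted p = 1.51e-06, limma). Between IMR-32 and SK-N-BE(2), with 9.67% called, it differed by 3.40 for TH (0.37, adjusted p = 7.19e-07, limma), 3.32 for DBH (0.45, adjusted p = 1.54e-05, limma) and 2.02 for RET (0.46, adjusted p = 0.00416, limma). The effect of each gene was thus larger in IMR-32 in this fit, but for DBH against CHP-212 it was not called after quantile normalization (1.06, adjusted p = 0.353, limma) or on the authors' values (1.18, adjusted p = 0.255, limma). Between CHP-212 and SK-N-BE(2), with 2.75% called, RET was called, with a difference of -1.97 (0.46, adjusted p = 0.0158, limma), as its ratio was below 0 in CHP-212 and above 0 in SK-N-BE(2). This RET result rests on the labels of SK-N-BE(2). With those labels exchanged, the difference from CHP-212 would be -0.05 for RET, 2.60 for DBH and 0.16 for TH, and that of IMR-32 would be 3.93, 4.39 and 3.26. These values show only how far the numbers rest on the labels, and whether any label is wrong was not tested. Between CHP-212 and SK-N-BE(2) as labelled, DBH differed by 1.53 (95% confidence interval 0.60 to 2.46, adjusted p = 0.0704, limma) and TH by 0.30 (95% confidence interval -0.47 to 1.06, adjusted p = 0.793, limma). With the slide as a random block, this DBH difference was called (adjusted p = 0.035, limma). Over all alternatives it ran from 0.46 to 2.31 (adjusted p from 0.0116 to 0.987, limma). With 24 and 72 h only, the DBH difference between IMR-32 and CHP-212 was also not called (adjusted p = 0.0964, range over alternatives 0.000258 to 0.353, limma). The same was true of RET between IMR-32 and SK-N-BE(2) (adjusted p = 0.131, range 0.000764 to 0.131, limma) and between CHP-212 and SK-N-BE(2) (adjusted p = 0.325, range 0.00323 to 0.325, limma).

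Time was compared within slides, as the difference of 12 from 0 h and of 72 from 24 h in each of the 6 cultures. From 0 to 12 h, where 1.31% of 36234 probes were called, 0 of the 3 genes were called by limma and 0 had an unadjusted p under 0.05. The log2 difference in IMR-32 GFP, IMR-32 FOXP1, CHP-212 GFP, CHP-212 FOXP1, SK-N-BE(2) GFP and SK-N-BE(2) FOXP1 was -0.44, 0.30, -0.04, 0.03, -0.15 and -0.35 for TH. In the same order it was -0.30, 0.11, 0.02, 0.15, 0.08 and -0.34 for DBH and 0.93, 0.18, 0.04, -0.39, 0.23 and -0.49 for RET. TH was higher at 12 h in 2 of 6 cultures, RET in 4 of 6 and DBH in 2 of the 4 cultures with both arrays well above background. The mean differences were -0.11 for TH (95% confidence interval -0.41 to 0.20, adjusted p = 0.816, limma), -0.05 for DBH (-0.33 to 0.24, adjusted p = 0.929, limma) and 0.08 for RET (-0.35 to 0.52, adjusted p = 0.912, limma). Over left-out cultures that of TH ran from -0.19 to -0.04.

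From 24 to 72 h, limma called 0 of 36234 probes (0%), while 3199 had an unadjusted p under 0.05, and none of these was TH, DBH or RET. In the same order of cultures, the log2 difference was 1.17, 0.58, -0.21, -0.17, 0.68 and 0.57 for TH. It was 0.94, 0.74, 1.12, -0.70, 0.50 and 0.55 for DBH and -0.13, 1.50, -0.24, -0.15, 0.44 and 0.52 for RET. TH was higher at 72 h in the 4 cultures of SK-N-BE(2) and IMR-32 and lower in the 2 of CHP-212, DBH was higher in 5 of 6 and RET in 3 of 6. The mean differences were 0.44 for TH (95% confidence interval -0.02 to 0.89, adjusted p = 0.568, limma), 0.52 for DBH (-0.01 to 1.06, adjusted p = 0.565, limma) and 0.32 for RET (-0.22 to 0.86, adjusted p = 0.627, limma). Over left-out cultures they ran from 0.29 to 0.57 for TH, from 0.41 to 0.77 for DBH and from 0.09 to 0.43 for RET. In the 4 cultures of SK-N-BE(2) and IMR-32, the 72 h array was the highest of its culture for DBH.

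**Figure D3:**
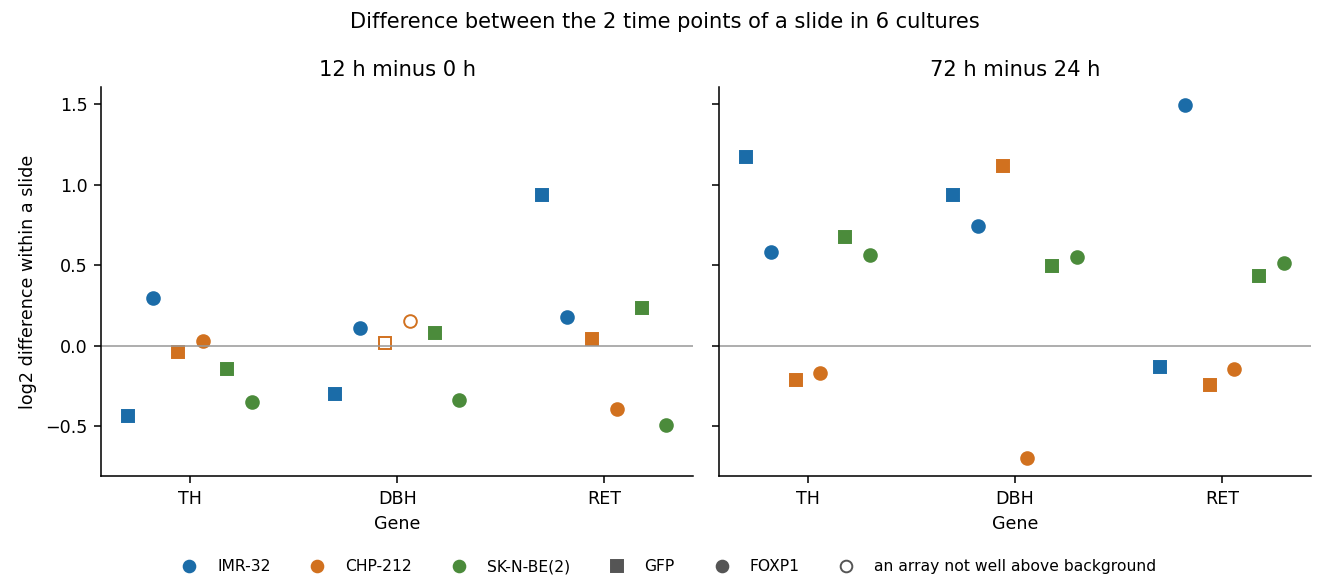
Log2 difference of 12 from 0 h and of 72 from 24 h within a slide, for TH, DBH and RET in each of 6 cultures, with open symbols where an array was not well above background. From 24 to 72 h the TH points of SK-N-BE(2) and IMR-32 lie at 0.57 to 1.17 and those of CHP-212 at -0.21 and -0.17.

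How far the genes moved together depended on whether cultures or time points were compared. Over the 24 arrays, Pearson's r was 0.80 for TH and RET (Spearman's rho 0.49), -0.24 for TH and DBH (-0.52) and -0.04 for DBH and RET (0.03). The arrays of a culture are not independent and the 6 cultures form separate groups, so these values describe the culture means. Without the 2 arrays farthest from the median of TH, r for TH and RET was 0.71 (rho 0.34, n = 22) and r for TH and DBH was -0.43 (-0.63). Without the 2 arrays farthest from the median of DBH, r for DBH and RET was 0.07 (rho 0.19, n = 22). On the 21 arrays with both probes well above background, r was -0.14 for TH and DBH (rho -0.34) and 0.10 for DBH and RET (0.23), so neither pair has a fixed value of r. Over the 8 arrays of IMR-32, CHP-212 or SK-N-BE(2), in this order, r was 0.996, 0.51 and 0.51 for TH and DBH (rho 0.98, 0.24 and 0.40). It was 0.94, 0.11 and 0.03 for TH and RET (0.88, 0.31 and -0.10) and 0.96, -0.74 and 0.74 for DBH and RET (0.95, -0.76 and 0.76). Each of these mixes the difference between the 2 cultures of a line with changes over time. TH and RET were both low in IMR-32 GFP cells and high in the CHP-212 cultures, while DBH was low in CHP-212 and high in SK-N-BE(2).

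When the mean of its culture was taken from each array, the order of the pairs was another. The deviations of TH and DBH had a Pearson's r of 0.72 (rho 0.71, n = 24), those of TH and RET 0.45 (0.45) and those of DBH and RET 0.31 (0.40). Without the 2 arrays farthest from the median of TH, r for TH and DBH was 0.72 (rho 0.73, n = 22) and r for TH and RET 0.38 (0.36). Without the 2 farthest in DBH, r for DBH and RET was 0.25 (rho 0.34, n = 22). Within a line, r for the deviations of TH and DBH was 0.93 in IMR-32 (rho 0.69, n = 8), 0.44 in CHP-212 (0.33, n = 8) and 0.97 in SK-N-BE(2) (0.98, n = 8). For TH and RET the 3 values were 0.37 (IMR-32, rho 0.19), 0.80 (CHP-212, 0.76) and 0.26 (SK-N-BE(2), 0.29). For DBH and RET they were 0.58 (IMR-32, rho 0.69), 0.03 (CHP-212, -0.12) and 0.28 (SK-N-BE(2), 0.36). The enzymes TH and DBH thus deviated together over time in the lines in which both were well above background, where the 72 h arrays were high for both. The arrays share their culture and slide, and the deviations also hold any error common to an array.

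**Figure D4:**
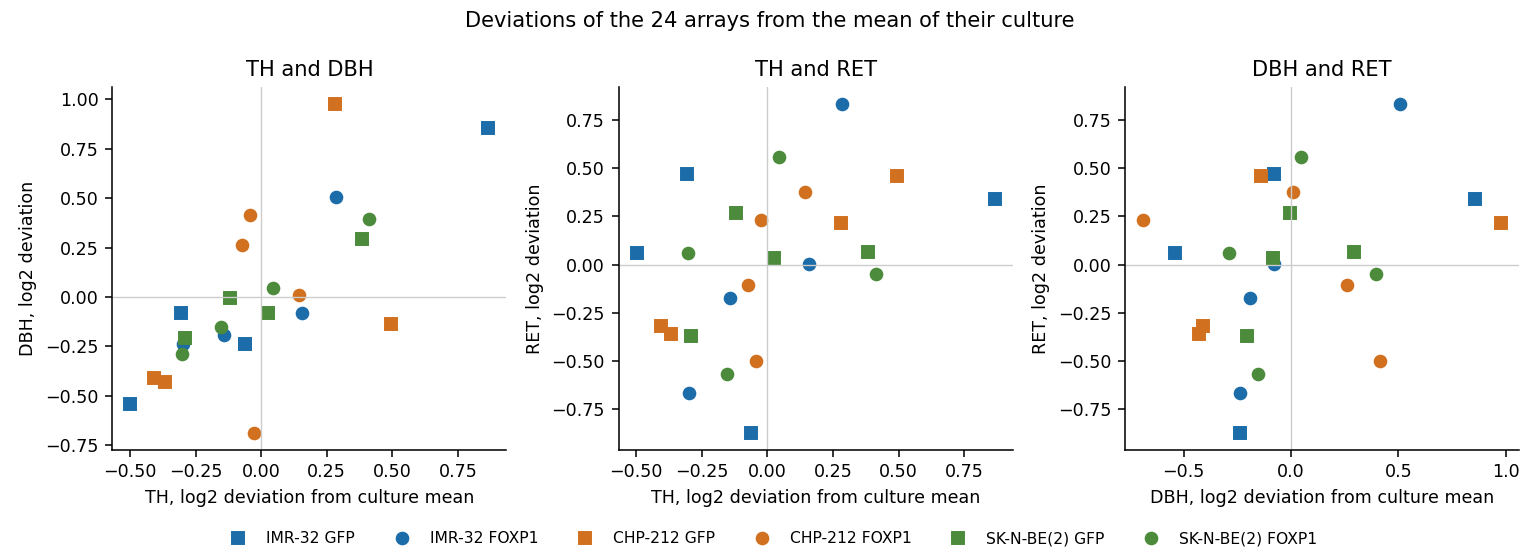
Deviation of each of the 24 arrays from the mean of its culture on the log2 scale, for the 3 pairs of genes, with squares for GFP and circles for FOXP1 cultures. The points of TH and DBH rise together (r = 0.72), more so in SK-N-BE(2) (0.97) and IMR-32 (0.93) than in CHP-212 (0.44).

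The probes most like each gene over the 24 arrays were sought among 33149 probes well above background on at least 12 arrays. For TH they were PON2 (r = 0.973), AGPAT3 (0.972), FAM43B (0.961) and 2 probes without a symbol here, UKv4_A_32_P99347 (0.958) and UKv4_A_23_P357760 (0.956). For DBH, TFEB (0.972) was the only named gene among the 5 most like it, and the first was UKv4_A_24_P236251 (0.989). For RET, METTL7A (0.974) and SH3BGRL (0.972) were the named ones, and the first was UKv4_A_24_P343695 (0.986). Among these 33149 probes, RET ranked 458 in its likeness to TH, and DBH ranked 23414. Neither was therefore among the probes that followed TH most closely across cultures.

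Other genes of the same pathways were read from 4 lists of 88 genes in all, of which 39 had a probe with a symbol here. All these symbols come from the genes the study had selected as changed, so the counts are not independent evidence of a change. The list of catecholamine synthesis, storage, uptake and breakdown had 13 of 23 genes with a probe. In IMR-32, 9 of its 12 genes tested were higher in FOXP1 cells and 0 lower (limma, 12.2% of all probes called), with a median log2 difference of 2.34 beside -0.01 over all probes. Besides TH and DBH these were GCHFR and SPR, which act on the cofactor of TH, CYB561, which supplies electrons for DBH in vesicles, the vesicular transporter SLC18A1, the noradrenaline transporter SLC6A2, and CHGB and SCG2, granins of the storage vesicles. CYB561 was 9.80-fold higher, SLC6A2 8.33-fold and CHGB 7.04-fold. SLC18A1 had a log2 level of -0.24 in FOXP1 cells and -6.83 in GFP cells, where 2 of 4 arrays were well above background. PNMT, which makes adrenaline, differed by -0.66 (adjusted p = 0.0326, limma), MAOA by 0.45 and SCG5 by -0.48, none of them called.

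In CHP-212, 3 of 12 genes of this list were called (3.02% of all probes), DBH and SCG5 higher and the vesicular transporter SLC18A2 lower. SCG5 was 2.72-fold higher, with 3 of 4 GFP arrays well above background. SLC18A2 was lower by 1.28 on the log2 scale, with 3 of 4 FOXP1 arrays well above background. The median of the list was 0.23 beside 0.02 over all probes. In SK-N-BE(2), 3 of 13 were called (0.711% of all probes), with a median of 0.25 beside -0.01. On the arrays labelled FOXP1, PNMT was 2.05-fold higher, and SLC6A2 and MAOA were 2.43-fold and 2.19-fold lower. TH and DBH were not among the genes called there.

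In the GFP cells of CHP-212, genes of this list went in both directions. Against SK-N-BE(2), 13 of 13 genes of the list were called (30.6% of all probes), 5 higher and 8 lower in CHP-212, with a median of -2.41 beside -0.10 over all probes. SLC6A2 had a mean level of -5.74 in CHP-212, beside 3.37 in SK-N-BE(2), and CHGB of -5.28 beside 3.58, with 2 of 4 CHP-212 arrays well above background for each. SLC18A1 was not well above background on any CHP-212 GFP array and was at least 34.0-fold lower than in SK-N-BE(2) (adjusted p = 2.73e-10, limma). The 5 genes higher in CHP-212 were TH, GCHFR, SPR, SLC18A2 and SCG2. Of the genes of the cofactor of TH, only GCHFR and SPR could be read here. Against IMR-32, 12 of 13 were called, 6 higher and 6 lower in IMR-32 (30.8% of all probes), with a median of -0.11 beside -0.09. Between IMR-32 and SK-N-BE(2), 9 of 13 were called and all 9 were lower in IMR-32 (24.7% of all probes), with a median of -2.76 beside -0.20.

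For RET, the list of GDNF family ligands, co-receptors, adaptors and downstream genes had 13 of 29 genes with a probe. In IMR-32, 8 of 12 tested were called (12.2% of all probes), 4 higher and 4 lower, with a median of -0.46 beside -0.01 over all probes. RET and its co-receptor GFRA1 were higher together with the adaptors SHC1 and SHC2. GFRA1 had a level of -2.41 in FOXP1 cells and -7.28 in GFP cells, where 1 of 4 arrays was well above background. The co-receptor GFRA3 was 5.43-fold lower and the ligand NRTN 5.28-fold lower (2 of 4 FOXP1 arrays well above background), as were SPRY2, an inhibitor of receptor kinase signalling, and the transcription factor ETV1 (3 of 4 FOXP1 arrays well above background). The co-receptor GFRA2 differed by -0.01 and was not called. RET was thus higher in cells with more of a co-receptor for GDNF and less of the co-receptor for artemin.

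In CHP-212, 3 of 11 genes of the RET list were called (3.02% of all probes), with a median of -0.11 beside 0.02. The adaptor DOK6 was 2.31-fold higher and SPRY1 6.37-fold higher, and the adaptor SHC3 was 16.2-fold lower, with 2 of 4 FOXP1 arrays well above background. In SK-N-BE(2), 1 of 12 was called (0.711% of all probes), GFRA2, which was 2.90-fold lower on the arrays labelled FOXP1, with a median of 0.15 beside -0.01. In the GFP cells, 11 of 13 were called between IMR-32 and CHP-212 (30.8% of all probes), 7 of 13 between IMR-32 and SK-N-BE(2) (24.7%) and 9 of 13 between CHP-212 and SK-N-BE(2) (30.6%). In these 3 comparisons, 5, 2 and 3 of the genes called were higher in the line named first, and the medians were -0.90, -0.46 and -0.36 beside -0.09, -0.20 and -0.10 over all probes.

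**Figure D5:**
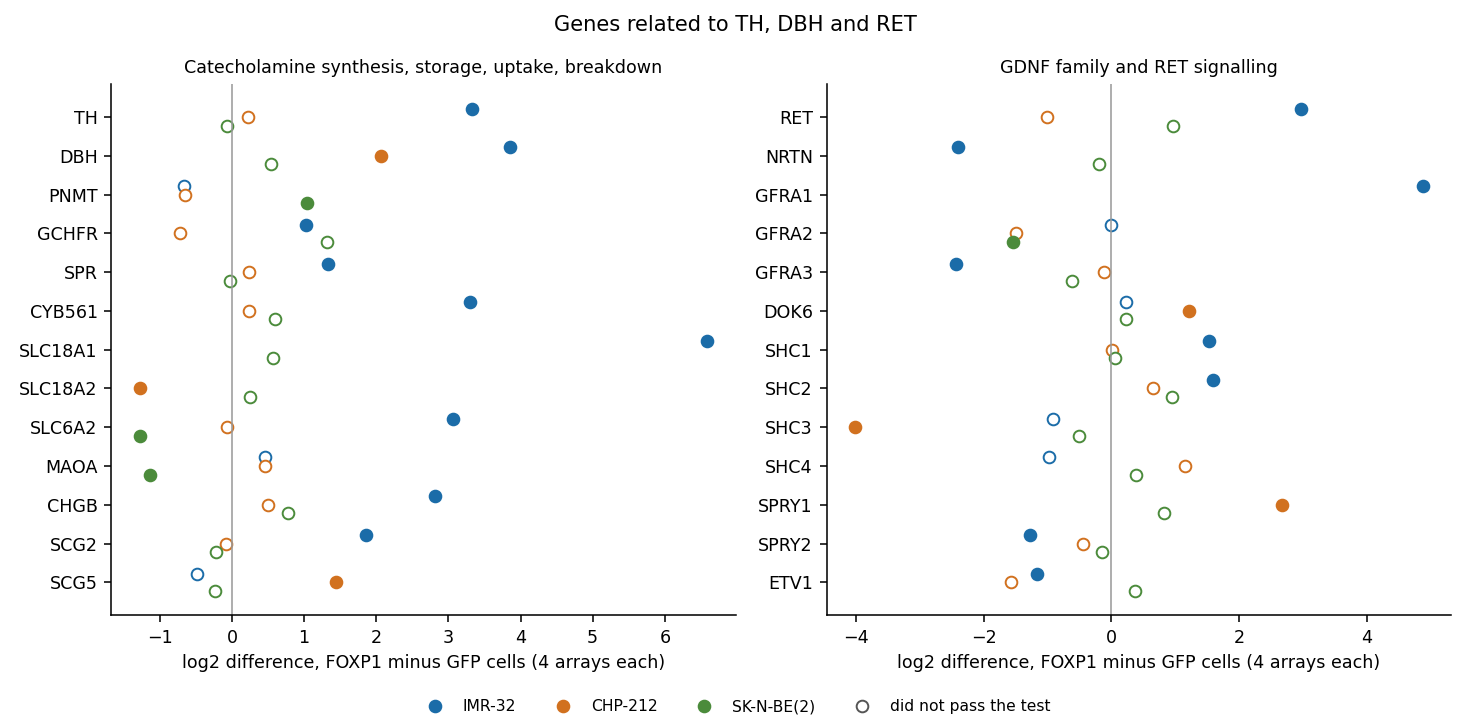
Log2 difference between FOXP1 and GFP cells (4 arrays each) for genes of catecholamine handling and of RET signalling with a symbol here, by line, with filled circles for genes called at an adjusted p under 0.05 and at least 2-fold. In IMR-32, 9 of 12 genes of the first list are called and all 9 lie to the right of 0, while in the second list 4 are called on each side.

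Transcription factors of the sympathetic lineage had a probe for 7 of 22 genes. In IMR-32, 6 of 7 were called (12.2% of all probes), 3 higher and 3 lower, with a median of 0.24 beside -0.01. TFAP2B, a factor of neural crest development, was 50.7-fold higher in FOXP1 cells, and TBX3 and EYA1 were higher too, while LMO4 and SATB1 were lower. LMO3 was not well above background on any IMR-32 FOXP1 array and was at least 119-fold lower there than in GFP cells (adjusted p = 2.4e-07, limma). In SK-N-BE(2), 1 of 7 was called, LMO3, which was 4.27-fold higher. TFAP2B followed DBH in the GFP cells, with a level of 4.09 in SK-N-BE(2), -1.16 in IMR-32 and -6.61 in CHP-212, where 1 of 4 arrays was well above background.

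Adrenergic and dopamine receptors had a probe for 6 of 14 genes. In IMR-32, 2 of 2 tested were called and both were lower in FOXP1 cells, in which TH and DBH were higher. The adrenergic receptor ADRA2A fell by 3.59 on the log2 scale and the dopamine receptor DRD2 by 1.62.

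Markers of other states a neuroblastoma culture can hold were read as well. Of 15 mesenchymal markers, FOSL2, RUNX1 and PRRX1 had one. FOSL2 was 5.01-fold and RUNX1 2.90-fold higher in FOXP1 cells of IMR-32, RUNX1 was 4.55-fold higher in those of CHP-212, and PRRX1 was not well above background in enough arrays to be tested. PMEL, the only one of 8 Schwann and melanocytic markers with a probe, was 5.69-fold lower in FOXP1 cells of IMR-32. Of 5 cholinergic markers, 3 had a probe. SLC18A3, the vesicular acetylcholine transporter, was 5.48-fold higher in FOXP1 cells of CHP-212, as 1 called of 2 tested (3.02% of all probes). In IMR-32 and in SK-N-BE(2), 0 of 3 tested were called (12.2% and 0.711% of all probes). What these markers have to do with the levels of TH, DBH and RET was not tested.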

How the data were processed

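RNA of 24 samples from 6 cultures was measured on 24 one-colour 44K oligonucleotide arrays. The authors deposited, per the file headers, the output of scanner software (Feature Extraction 10.7.3.1) with a background-subtracted, trend-corrected processed signal intensity for each spot, without normalization between arrays. A table of intensity values deposited beside it had the rank order of these signals on every array (lowest Spearman's rho 1) and the same sorted values on all arrays to within 0.088%, and was read as their quantile-normalized form. Its median was 144.

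Control spots and 311 outlier spots were left out, none of them of TH, DBH or RET, and the 75th percentile of its array was taken from each log2 intensity. Over all arrays 1 spot was saturated. Within a line, probes well above background on at least 4 of 8 arrays were tested, and in the fits over lines and times those for which this held in at least 1 line. Tests were two-sided and used limma 3.58.1 in R 4.3.3, with 4 arrays per group and Benjamini-Hochberg adjustment over the probes tested. Levels on arrays not well above background carry little information. Where this held for a whole group, a fold change is given as at least the mean of the other group over, per array, the higher of the lowest well-above-background signal and the probe's own. The number of arrays limits the precision. Python 3.11.15, numpy 2.4.6, scipy 1.17.1, pandas 2.3.3 and matplotlib 3.10.9 were used, and the fits were tested on simulated data.

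Named genes were TH, DBH, RET and FOXP1, the lists, and the 5 probes with the highest Pearson's r to each gene. Members and lists were chosen with earlier results of these data known. Symbols came from the study's list of regulated genes, and 3131 of 3504 accessions matched RefSeq, which updated 492 symbols. Of the 4 lists of related genes, 39 of 88 genes had a probe, and of the markers of other states 3 of 15, 1 of 8 and 3 of 5. At each time, the FOXP1 and GFP sample lay on 1 slide. Their deviations from the culture means correlated, in the order 0, 12, 24 and 72 h, at 0.426, 0.601, 0.375 and 0.438 (IMR-32), 0.0535, 0.491, 0.549 and 0.445 (CHP-212) and 0.370, 0.670, 0.584 and 0.435 (SK-N-BE(2)). The comparison was unpaired, as in the study's methods.

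The alternatives were normexp (offset 50, on the median spot signal because the files hold no mean), quantile normalization, the authors' table, changed limits for dim probes, blocks by time point or by slide, the methods' t-test (with Benjamini-Hochberg adjustment, which the methods do not name), fewer time points, all arrays in a single fit and leaving out each array. The use of 24 and 72 h only in the comparisons of FOXP1 with GFP cells, and the time contrasts without CHP-212, were chosen after seeing the data. Proteins and the promoter of TH were not analysed here.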

Additional observations from a re-analysis of the deposited data

Results flagged for a closer look

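IMR-32 had the larger difference of FOXP1 from GFP cells when set against CHP-212, by 3.11 on the log2 scale for TH, 1.79 for DBH and 3.98 for RET, each by the limma test of the difference itself. Against SK-N-BE(2) it was larger in IMR-32 by 3.40 for TH, 3.32 for DBH and 2.02 for RET. Between CHP-212 and SK-N-BE(2), the effect on RET differed by -1.97 as labelled, and would differ by -0.05 with the labels of SK-N-BE(2) exchanged. Whether any label is wrong was not tested. The mean difference of 72 from 24 h in TH was 1.07 higher in IMR-32 than in CHP-212, and that of CHP-212 minus that of SK-N-BE(2) was -0.81, since both CHP-212 cultures were lower at 72 h and both cultures of the other line were higher. For RET, the difference of CHP-212 minus that of SK-N-BE(2) was -0.67, with the same opposite directions. These 3 time differences rest on 2 cultures per line and were not tested. No array stood apart from the other 3 of its group in the 24 groups examined (4 genes, 6 cultures) by Dixon's test.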

How the results depend on the processing

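Of 33 differences of TH, DBH and RET, 21 kept direction and side of the threshold under every alternative run. These include TH, DBH and RET in FOXP1 against GFP cells of IMR-32 and all GFP contrasts between lines except RET between CHP-212 and SK-N-BE(2). In CHP-212, DBH was no longer called with normexp (1.00), quantile normalization (2.92), the time point as a replicate block (2.07, adjusted p = 0.0512), the methods' t-test with an adjustment its authors do not name (2.07, adjusted p = 0.0584), without 0 h (1.84), with 24 and 72 h only (1.31) and without the GFP array of 24 h (adjusted p = 0.0505). Leaving out each array gave 1.92 to 2.39, and the slides gave 2.83 and 1.31. RET in CHP-212 was called with normexp (-1.06), with probes well above background on all 8 arrays, with the time point as a replicate block and with the slide as a block (-1.01 in these 3, adjusted p = 0.0412, 0.0156 and 0.00556, limma). The replicate block changed no other call of the 3 genes in FOXP1 against GFP cells, and called 477 probes in SK-N-BE(2) beside 242. In CHP-212 at 0 h the FOXP1 and GFP deviations correlated at only 0.0535. Over all alternatives the adjusted p ran from 0.000148 to 0.262 for DBH and from 0.00556 to 0.192 for RET in CHP-212.

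TH changed direction with 24 and 72 h only in CHP-212 (-0.10), SK-N-BE(2) (0.0144) and the difference of effects between them (-0.12), and when single arrays were left out in SK-N-BE(2) (-0.21 to 0.0591, above 0 without the GFP array of 72 h or, at 0.0320, the array labelled FOXP1 of 12 h). The effect of IMR-32 minus CHP-212 on DBH was not called with quantile normalization (1.06), the authors' values (1.18) and 24 and 72 h only (2.29). That of IMR-32 minus SK-N-BE(2) on RET was not called with 24 and 72 h only (1.85), nor that of CHP-212 minus SK-N-BE(2) on RET with these times (-1.84) or without 0 h (-1.88). That of CHP-212 minus SK-N-BE(2) on DBH was called with the slide as a random block (1.53, adjusted p = 0.035, limma, range over alternatives 0.0116 to 0.987) and without the 72 h array of IMR-32 GFP, CHP-212 GFP or CHP-212 FOXP1 (range 1.39 to 1.86). RET in GFP cells of CHP-212 minus SK-N-BE(2) was called with quantile normalization (1.00), with 24 and 72 h only (1.41) and without the 0 or 12 h array of CHP-212 or the 12 h array of SK-N-BE(2) (range 0.77 to 1.04). From 0 to 12 h, DBH ran from -0.0856 to 0.0124 and RET from -0.0872 to 0.20 over left-out cultures, DBH being above 0 without IMR-32 GFP or SK-N-BE(2) FOXP1 and RET below 0 without IMR-32 GFP and, with normexp, at -0.0163. Without CHP-212, the differences of 72 from 24 h were 0.75 for TH, 0.68 for DBH and 0.58 for RET (adjusted p = 0.574 each, limma).

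Counts of probes called moved by more than 1.5 times as follows. With normexp, 1425 in IMR-32 (904 higher) beside 4123 (2143 higher) and 604 in CHP-212 (456 higher) beside 994 (637 higher), with medians over all probes of 0.22 and 0.14, so these differences hold relative to those shifts. In the GFP contrasts normexp gave 7180, 5222 and 7340 beside 11162, 8954 and 11082, in the differences of effects 1916, 1663 and 264 beside 4274, 3505 and 995, and from 0 to 12 h 314 beside 476. In CHP-212, the filter on all 8 arrays gave 628, the methods' t-test with the added adjustment 644 and 24 and 72 h only 511. In SK-N-BE(2), the t-test so adjusted gave 121, the data without 0 h 40 and 24 and 72 h only 0 by limma (909 at an unadjusted p under 0.05). The differences of effects gave 2348, 2295 and 333 with 24 and 72 h only, and 587 for CHP-212 minus SK-N-BE(2) without 0 h. The cause of these shifts was not tested. Signal over background limits DBH in CHP-212, where 5 of 8 arrays were well above background.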
